A study of Mus musculus with 4 samples.

Results

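The genes described here carry cells through the division cycle: 38 genes taken from the authors' deposited table by their listed names, of 47643 genes in all. The list holds 19 genes of DNA replication and 19 of mitosis, and each name matched 1 row. RNA was measured in cells sorted from the diaphyseal periosteum, the membrane around the shaft, of intact mouse femora. Both groups came from the same mice, double heterozygotes with 1 allele of the Sox9CreErt2 driver (a tamoxifen-inducible Cre recombinase expressed from the Sox9 locus) and 1 allele of the Td-Tomato reporter, so the alleles and the tamoxifen were shared by both. The mice were given 3 intraperitoneal injections of 100 µL tamoxifen at 20 mg/mL, with 48 h between injections, and their femora were harvested 2 weeks later. The groups were the TdTomato-positive cells, which had Sox9-driven Cre activity at the time of tamoxifen or descend from cells that had it, and the TdTomato-negative cells, with 2 libraries in each. About 10000 cells of each kind were obtained in 2 collections from 18 femora of 9 mice. Mice were pooled, so any p-value measures at most the spread between libraries, and the animals' age is not given in the sources used here.

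Cells copy their DNA in S phase and separate the copies in mitosis, and each step has its own set of genes. Before S phase, Cdc6 and Cdt1 load the Mcm2-7 ring onto replication origins, and Cdc45 and the GINS complex turn that ring into the active helicase. The replication genes are transcribed from late G1 phase under E2F transcription factors, while most mitotic genes are transcribed in G2 phase and in mitosis through the CHR element, often next to CCAAT boxes. Both sets fall to low levels in cells that have left the cycle. In bone, dividing cells include the precursors of blood cells in the marrow, and adult periosteum holds few dividing cells at rest.

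Promoter windows are shown for 4 members as examples. Mcm2, an Mcm2-7 ring subunit, had the lowest ratio of positive to negative cells. Mcm5 is another subunit of that ring. Plk1, a mitotic kinase, was lower in both positive libraries than in both negative ones, and Ccnb2, a mitotic cyclin, had the ratio nearest to 1 among the mitosis genes. Each window runs from 250 bases before to 50 bases after the transcript start, 5′ to 3′ on the gene's strand, from RefSeq on GRCm38.p6. Capitals mark the letters of the motifs searched on both strands: TTCCCGC or TTGGCGC or TTCGCGC or TTGCCGC for E2F, TTTGAA for CHR, and CCAAT. E2F letters read on the minus strand can overlap CCAAT.
Mcm2, chr6:88898731-88899030, minus strand: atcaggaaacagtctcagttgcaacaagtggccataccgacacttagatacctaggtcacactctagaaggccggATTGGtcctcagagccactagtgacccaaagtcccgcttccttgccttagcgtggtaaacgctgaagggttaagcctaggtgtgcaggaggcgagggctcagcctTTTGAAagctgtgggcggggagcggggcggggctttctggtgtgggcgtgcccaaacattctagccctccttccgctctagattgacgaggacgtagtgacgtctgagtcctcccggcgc
Mcm5, chr8:75109259-75109558, plus strand: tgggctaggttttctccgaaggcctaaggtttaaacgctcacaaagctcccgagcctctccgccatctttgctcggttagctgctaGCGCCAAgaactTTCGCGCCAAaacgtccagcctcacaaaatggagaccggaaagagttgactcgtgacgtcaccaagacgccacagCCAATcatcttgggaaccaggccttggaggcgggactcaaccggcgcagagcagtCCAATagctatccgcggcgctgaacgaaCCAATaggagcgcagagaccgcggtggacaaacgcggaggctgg
Plk1, chr7:122159185-122159484, plus strand: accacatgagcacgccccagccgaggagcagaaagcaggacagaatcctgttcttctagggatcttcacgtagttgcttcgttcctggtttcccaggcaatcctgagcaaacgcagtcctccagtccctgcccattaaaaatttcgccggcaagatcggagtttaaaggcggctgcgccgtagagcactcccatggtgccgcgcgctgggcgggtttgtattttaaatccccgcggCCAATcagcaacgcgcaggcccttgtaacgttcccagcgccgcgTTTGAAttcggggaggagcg
Ccnb2, chr9:70421505-70421804, minus strand: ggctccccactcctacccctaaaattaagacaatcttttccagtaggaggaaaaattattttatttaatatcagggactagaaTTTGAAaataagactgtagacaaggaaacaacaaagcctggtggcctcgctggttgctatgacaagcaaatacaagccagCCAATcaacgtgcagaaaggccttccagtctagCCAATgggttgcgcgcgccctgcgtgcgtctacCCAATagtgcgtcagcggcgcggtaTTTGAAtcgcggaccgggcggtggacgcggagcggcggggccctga
The Mcm5 window holds 3 E2F matches, of which the last pair overlap, and 3 CCAAT matches. The Ccnb2 window holds 2 CHR and 3 CCAAT matches. The Plk1 window holds 1 CHR and 1 CCAAT match, and the Mcm2 window, although a replication gene's, holds 1 CHR and 1 CCAAT match and none of the E2F letters.

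Windows were found for 31 of the 38 members, and the replication and mitosis genes differed in the letters they held. E2F letters were in 11 of 16 replication members (68.8%) and in 3 of 15 mitosis members (20.0%), against 9.57% of all 32851 windows of this length. The mitosis members with E2F letters were Mki67, Cdk1 and Ccnb1. CHR was in 10 of 15 mitosis members (66.7%) and in 2 of 16 replication members (12.5%), Mcm2 and Cdc45, against 17.9% of all windows. CCAAT was in 11 of 16 replication members (68.8%) and 13 of 15 mitosis members (86.7%), against 37.4% of all windows. CHR and CCAAT stood together in 10 mitosis members (66.7%) and in 2 replication members (12.5%), against 6.95% of all windows. In wider lists of 33 other replication genes and 34 other mitosis genes with a window, E2F letters were in 57.6% and 20.6% and CHR in 18.2% and 73.5%. No letters searched were in the windows of Tyms, Ccne1, Birc5 and Nusap1. These are matches of letters in a fixed window, with no measurement of binding.

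**Figure D1:**
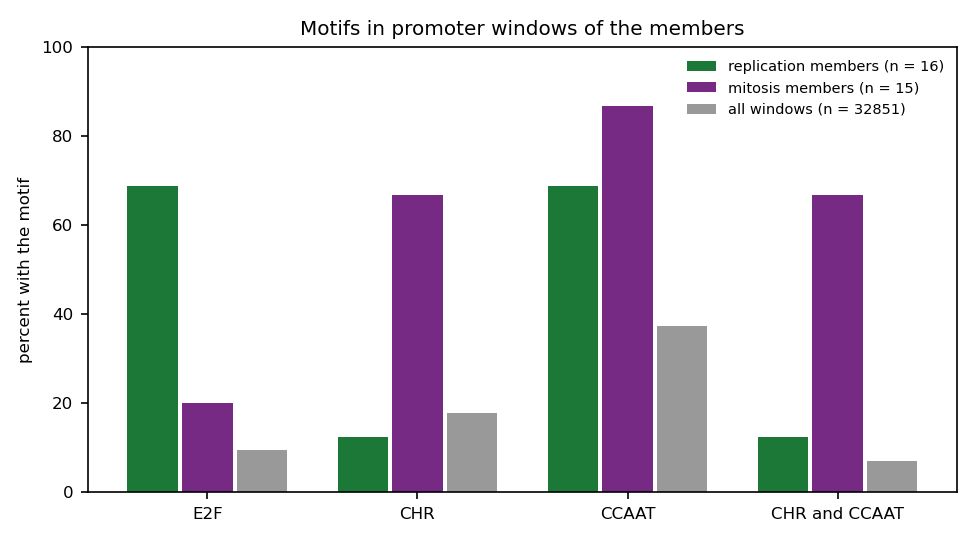
Percent of promoter windows holding each motif, on the vertical axis, for replication members (green, n = 16 genes), mitosis members (purple, n = 15 genes) and all windows of the reference table (grey, n = 32851). E2F letters reach 68.8% in replication members and CHR 66.7% in mitosis members, against 9.57% and 17.9% of all windows.

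The deposited table gives group means, not library values, and the 4 library values of each gene were solved from them. They are given as RPKM, reads per kilobase of genomic span (introns included) and per M reads sequenced, so levels may be compared between genes per length of span only. The table implied depths of 32.0 M reads for the shallower and 41.6 M for the deeper positive library, and of 17.0 M for the shallower and 74.0 M for the deeper negative library. Where 2 values are given for a group, the shallower library comes first. For 24 of the 38 members, 12 of each set, whole read numbers showed which value belonged to which library. These are called resolved. In some of them, Plk1 and Tpx2 included, only 1 value of a group met the whole-read rule and decided the assignment. For the other 14, ranges over both possible assignments are given. All 38 members had at least 10 reads in at least 2 libraries, and the fewest reads of a member in a library were 40, for Bub1 in a positive library. Bulk RNA cannot tell fewer cells of a kind from less RNA per cell, here and in every comparison that follows.

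No member passed the authors' test between positive and negative cells, although most members were read at lower levels in positive cells. By the authors' deposited table, FDR values below 0.05 were found for 0 of 38 members, against 0.00630% of all 47643 genes, and every member's FDR was 1.00. At an unadjusted p below 0.05, 0 of 38 members were lower and 0 were higher, against 0.300% and 0.594% of all genes, and the lowest p was 0.0824, for Mcm2. With limma on log2(RPKM + 1), 0 of the 29 members tested passed, against 0% of the 6859 genes tested. The lowest Benjamini-Hochberg adjusted p of a member in limma was 0.446. At an unadjusted p below 0.05 in limma, 1 of these 29 members, Ccnb1, was lower in positive cells, against 3.89% of the genes tested. Since this limma fit called no gene at all, its count of 0 says nothing particular about the members. For unresolved genes, Ccnb1 among them, it used the assignment whose libraries differ less. With the other assignment the unadjusted p of Ccnb1 was 0.204 in limma. A ratio of the deposited means is not 1 for a gene with equal RPKM in all 4 libraries. As inferred from the values, the deposited means carry a further division by depth, and such a gene has a log2 ratio of -0.39. Below that value lay 32 of 38 members, compared with 41.3% of the 17176 genes with enough reads. The further division gives shallower libraries more weight, so a ratio above -0.39 need not mean higher mean RPKM in positive cells. The median log2 ratio was -1.02 over the 19 replication members and -1.57 over the 19 mitosis members, beside -0.26 over all genes with enough reads. Both medians shifted when 1 library was left out. Over the 12 resolved members of a set, the replication median then lay between -2.37 and -0.35. The mitosis median lay between -2.33 and -1.02. The log2 ratio of a gene with equal RPKM shifts as well, so these ranges are not to be set against -0.39. Undoing the further division by depth removes that shift. The replication median was then 0.03, and the mitosis median -0.50, without the deeper negative library.

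The resolved members shared 1 order of the libraries at both ends, and libraries of the same group lay far apart. In 24 of 24 resolved members the deeper negative library was the highest and the shallower positive library the lowest, against 16.0% of the 11690 resolved genes with enough reads. The deeper positive library stood above the shallower negative library in 20 of 24, against 48.1%. Both positive libraries were below both negative ones in 4 of 24 (16.7%), Mcm2, Plk1, Cenpe and Tpx2, and in 18.0% of all resolved genes, so the members' share lay near that of all genes. The labels pair a positive with a negative sample by collection, but the values do not show which libraries belong together. If the shallower libraries formed one pair and the deeper libraries the other, 24 of 24 resolved members were lower in positive cells in both pairs, against 29.0% of all resolved genes. Under the other possible pairing 4 of 24 were lower in both pairs, against 22.7%. For the members both counts are fixed by the order of the libraries given above, so they add no further result. With a block for the first pairing, limma on resolved genes gave an unadjusted p below 0.05, lower in positive cells, for 11 of 16 members tested, against 11.7% of 3325 genes, and a lowest adjusted p of 0.0655. For the other pairing these were 0 of 16, 1.11% and a lowest adjusted p of 0.954 in limma. Among members whose positive values were resolved, the deeper positive library lay above the shallower one in 29 of 29, against 43.1% of all resolved genes. The median of this gap was 4.77-fold (2.25 in log2) over the 12 resolved replication members and 4.21-fold (2.07 in log2) over the 12 resolved mitosis members. The deeper negative library lay above the shallower one by medians of 3.10-fold (1.63 in log2) and 3.47-fold (1.80 in log2). Each of these gaps within a group was larger in log2 than the median ratio between the groups.

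**Figure D2:**
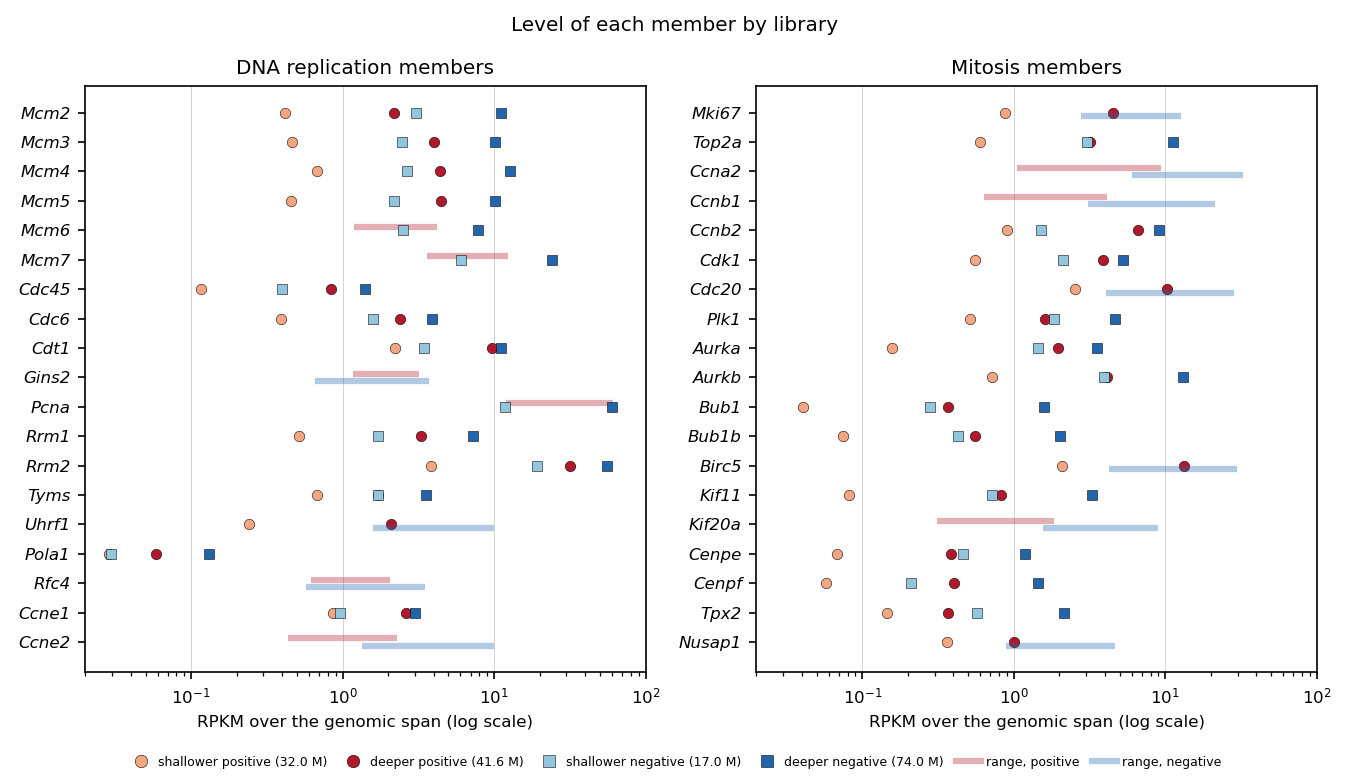
RPKM over the genomic span on a log axis for each replication member (left) and mitosis member (right), with red symbols for the positive and blue for the negative libraries and shaded bars for the range of a group whose values could not be assigned. In all 24 resolved members the deeper negative library is the highest and the shallower positive library the lowest.

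The 6 genes of the Mcm2-7 helicase ring had log2 ratios from -2.24 to -0.74. Mcm2 (chromosome 6, 88883474 to 88898780, mm10, minus strand) was read at 0.415 and 2.19 RPKM in positive cells and at 3.04 and 11.1 RPKM in negative cells, from 203, 1396, 789 and 12572 reads. The groups did not overlap for this gene, and the largest step in fold lay inside the positive group. Its deposited levels, the group means times span, were 35.6 and 168, a log2 ratio of -2.24 (p = 0.0824 in the authors' deposited table). In limma its log2 fold on RPKM + 1 was -1.72 with an SE of 0.71 (limma, adjusted p = 0.446). Mcm3 was read at 0.460 and 4.01 RPKM in positive and 2.47 and 10.2 RPKM in negative cells, with a log2 ratio of -1.32. Mcm4 stood at 0.674 and 4.37 RPKM against 2.66 and 12.8 RPKM, with a log2 ratio of -1.35. Mcm5 stood at 0.458 and 4.47 RPKM against 2.18 and 10.2 RPKM, with a log2 ratio of -1.11. In Mcm3, Mcm4 and Mcm5 the deeper positive library lay above the shallower negative one, so the groups overlapped. Mcm7 had 3.61 to 12.3 RPKM in positive cells and 6.06 and 24.3 RPKM in negative cells, with a log2 ratio of -0.74. For Mcm6 the positive values lay between 1.18 and 4.17 RPKM, the negative ones were 2.51 and 7.80 RPKM, and the log2 ratio was -0.87.

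The loaders and activators of that ring had log2 ratios from -1.02 to 0.31. Cdc6, the loading ATPase, was read at 0.390 and 2.40 RPKM in positive cells and at 1.59 and 3.90 RPKM in negative cells, with a log2 ratio of -1.02. Cdc45, the helicase activator, stood at 0.116 and 0.834 RPKM against 0.396 and 1.40 RPKM, with a log2 ratio of -0.76. Cdt1, which loads the ring together with Cdc6 and is destroyed once S phase starts, stood at 2.23 and 9.71 RPKM against 3.43 and 11.1 RPKM, with a log2 ratio of -0.22. Its deeper positive library was close to the highest negative one. Gins2, a GINS subunit, had 1.17 to 3.21 RPKM in positive and 0.660 to 3.70 RPKM in negative cells. Its log2 ratio of 0.31 was the highest of the 38 members (p = 0.872 in the authors' deposited table).

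Genes of the replication fork and of nucleotide supply included the highest levels among the members. Pcna, the sliding clamp, had 11.9 to 60.9 RPKM in positive cells and 11.8 and 60.5 RPKM in negative cells, so both groups spanned the same range. Its log2 ratio was 0.28, and -0.03 as the authors' difference of mean logs. The sign turned, but on that scale a gene with equal RPKM has -0.04. Rfc4, a clamp loader subunit, had 0.615 to 2.05 RPKM against 0.571 to 3.52 RPKM, with a log2 ratio of -0.25. Pola1, the catalytic subunit of the primase-polymerase and the member with the longest span (327 kb), stood at 0.0287 and 0.0587 RPKM against 0.0295 and 0.131 RPKM, with a log2 ratio of -0.45. Rrm2, the ribonucleotide reductase subunit that is limiting in S phase, was read at 3.82 and 31.6 RPKM in positive cells and at 19.1 and 56.0 RPKM in negative cells, with a log2 ratio of -1.10. Its partner Rrm1 stood at 0.516 and 3.27 RPKM against 1.72 and 7.31 RPKM, with a log2 ratio of -1.05. In both reductase genes the libraries fell in the same order as in Mcm3, Mcm4 and Mcm5. Tyms, thymidylate synthase, stood at 0.682 and 1.72 RPKM against 1.70 and 3.57 RPKM, with a log2 ratio of -1.19. Its deeper positive and shallower negative libraries were almost level.

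Uhrf1 and the E-type cyclins completed the replication list. Uhrf1, which brings the maintenance DNA methyltransferase to newly copied DNA, was read at 0.242 and 2.10 RPKM in positive cells and at 1.58 to 9.98 RPKM in negative cells. Its log2 ratio was -1.89 (p = 0.109 in the authors' deposited table). Ccne2 had 0.437 to 2.27 RPKM in positive cells and at least 1.34 RPKM in negative cells, with a log2 ratio of -1.59. Ccne1, the other cyclin that drives entry into S phase, stood at 0.859 and 2.61 RPKM against 0.956 and 3.00 RPKM. Its log2 ratio of -0.13 was the nearest to 0 among the replication genes, and its groups overlapped. The difference between the ratios of both E-type cyclins was not tested.

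Among the mitosis genes, the cyclins and their kinase spanned the whole range of ratios. Ccnb1, the B-type cyclin of the entry into mitosis, had 0.632 to 4.11 RPKM in positive cells and 3.08 to 21.2 RPKM in negative cells. Its log2 ratio was -1.93 (p = 0.116 in the authors' deposited table), and its limma log2 fold was -1.74 with an SE of 0.66 (limma, adjusted p = 0.446). With the other assignment of its values the SE was 1.15. Ccnb2 was read at 0.907 and 6.56 RPKM in positive cells and at 1.52 and 9.09 RPKM in negative cells. Its log2 ratio of -0.20 was the only one of the mitosis list above that of a gene with equal RPKM. Its mean RPKM was still lower in positive cells, since the deposited ratio gives shallower libraries more weight. Ccna2, the cyclin of S and G2 phase, had 1.05 to 9.44 RPKM against 5.99 to 32.6 RPKM, with a log2 ratio of -1.60. Its deposited level in negative cells, 401, was the highest of the mitosis list, while in positive cells Birc5 (194) and Cdc20 (165) stood above its 133. Cdk1, the kinase that the B-type cyclins activate, stood at 0.553 and 3.90 RPKM against 2.10 and 5.24 RPKM, with a log2 ratio of -0.79. Cdc20, which turns on the ubiquitin ligase that destroys those cyclins, was read at 2.52 and 10.3 RPKM in positive and 4.07 to 28.6 RPKM in negative cells, with a log2 ratio of -0.94.

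The mitotic kinases, their partner Birc5 and the checkpoint genes had log2 ratios from -1.71 to -0.77. Plk1 (chromosome 7, 122159439 to 122169873, mm10, plus strand) was read at 0.516 and 1.61 RPKM in positive cells and at 1.85 and 4.63 RPKM in negative cells, without overlap. Its log2 ratio was -1.57 (p = 0.262 in the authors' deposited table). Aurka, the kinase of the spindle poles, stood at 0.157 and 1.97 RPKM against 1.45 and 3.57 RPKM, and its log2 ratio was -1.29. Aurkb, the kinase of the chromosomal passenger complex, stood at 0.723 and 4.12 RPKM against 3.92 and 13.1 RPKM, and its log2 ratio was -1.71. In both Aurora kinases the deeper positive library lay above the shallower negative one. Birc5, survivin, which belongs to the same complex as Aurkb, stood at 2.07 and 13.2 RPKM against 4.27 to 29.7 RPKM, with a log2 ratio of -0.77. The spindle checkpoint kinases Bub1 and Bub1b had log2 ratios of -1.53 and -1.49. Bub1 was read at 0.0407 and 0.370 RPKM in positive cells and at 0.280 and 1.59 RPKM in negative cells, and Bub1b at 0.0750 and 0.556 RPKM against 0.428 and 2.03 RPKM.

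Spindle, kinetochore and chromosome genes had mostly low levels per length of genomic span. Their spans, introns included, reached 61075 bases in Cenpe. Mki67, the perichromosomal protein used as a stain for cycling cells, was read at 0.880 and 4.53 RPKM in positive cells and at 2.77 to 12.7 RPKM in negative cells, with a log2 ratio of -1.27. Top2a, the topoisomerase that untangles chromosomes, stood at 0.594 and 3.18 RPKM against 3.04 and 11.2 RPKM, with a log2 ratio of -1.75. The deeper positive and shallower negative libraries were almost level in Top2a. Kif11, the motor that pushes the spindle poles apart, stood at 0.0812 and 0.820 RPKM against 0.723 and 3.27 RPKM, with a log2 ratio of -1.76. Kif20a, a motor of cytokinesis, had 0.311 to 1.84 RPKM in positive and 1.55 to 9.00 RPKM in negative cells, with a log2 ratio of -1.88. Tpx2, which activates Aurora A on the spindle, stood at 0.145 and 0.369 RPKM against 0.571 and 2.15 RPKM, without overlap and with a log2 ratio of -1.88. Nusap1, a microtubule bundling protein, stood at 0.362 and 0.999 RPKM against 0.886 to 4.69 RPKM, with a log2 ratio of -1.59. The kinetochore gene Cenpe stood at 0.0676 and 0.388 RPKM against 0.461 and 1.18 RPKM, also without overlap and with a log2 ratio of -1.57. Cenpf, another kinetochore gene, stood at 0.0573 and 0.406 RPKM against 0.210 and 1.44 RPKM, with a log2 ratio of -1.19.

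**Figure D3:**
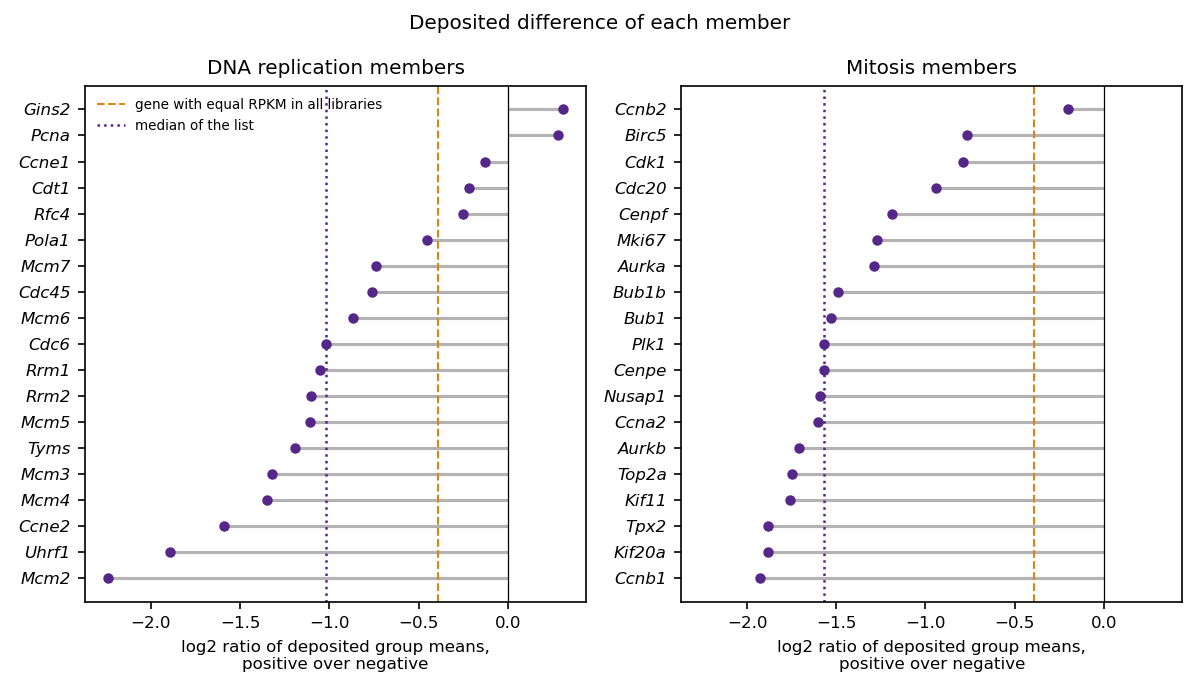
Log2 ratio of the deposited group means, positive over negative cells, for each replication and mitosis member, with the ratio of a gene at equal RPKM (-0.39, dashed) and the median of each list (dotted). The replication members run from -2.24 to 0.31 and the mitosis members from -1.93 to -0.20, and no member passed the test.

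The replication and mitosis genes were contrasted in 3 ways. By the deposited log2 ratio, 14 of 19 replication members and 18 of 19 mitosis members lay below the ratio of a gene at equal RPKM, and the medians differed by -0.54 (mitosis minus replication). This difference was -0.17 when 1 RPKM in place of 0.1 was added before the logarithm, and -0.64 when 0.01 RPKM was added. It was 0.04 in resolved members without the deeper positive library. In the remaining positive library the resolved mitosis members had a median of 0.151 RPKM, near the added 0.1. Within a library, the median log2(RPKM + 0.1) of the 12 resolved mitosis members lay below that of the 12 resolved replication members. These differences were -1.23 and -1.27 for positive and -0.85 and -1.31 for negative libraries, so the groups overlapped. The added 0.1 narrows the difference in the shallower positive library, given its low mitosis median. The summed RPKM of mitosis over replication members was 0.368 and 0.360 in positive and 0.421 and 0.447 in negative libraries, where the groups did not overlap. An exact permutation test of 2 libraries against 2 cannot give a p below 0.333, and no other test of these summed or median values was made.

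The 4 pairs of a positive with a negative library gave unlike differences for the members. Against the deeper negative library, the shallower positive library had median log2 differences of -3.31 for replication and -3.44 for mitosis members. Against the same negative library, the deeper positive library had medians of -0.92 and -1.62. Against the shallower negative library, the shallower positive library had medians of -1.67 and -1.70. The remaining combination turned the other way: the deeper positive library had medians of 0.71 and 0.23 against the shallower negative library, and 11 of 12 replication and 9 of 12 mitosis members were higher in the positive library. The medians over all 11690 resolved genes lay between -0.06 and 0.13 in these 4 pairs. With 0.1 RPKM added, the replication and mitosis medians lay closer together in both pairs with the shallower positive library than with the deeper one. In the shallower positive library Bub1 (0.0407), Bub1b (0.0750), Kif11 (0.0812), Cenpe (0.0676) and Cenpf (0.0573 RPKM) lay below the added 0.1. So did the replication member Pola1 (0.0287 RPKM). The addition shrinks such differences, so the closeness may not hold without it. This is a description of these libraries with no test.

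**Figure D4:**
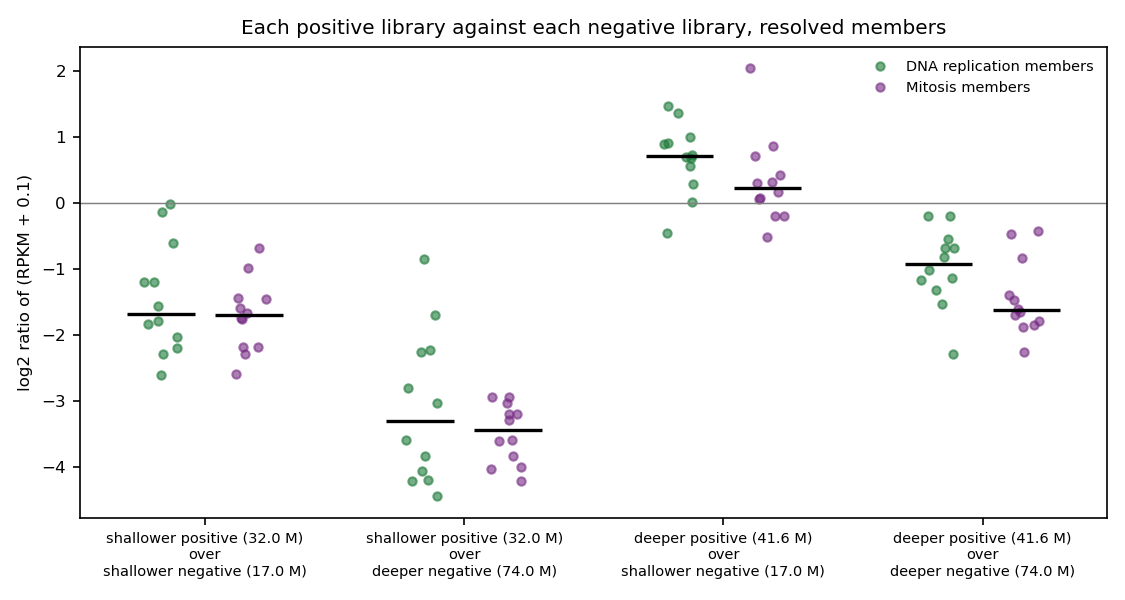
Log2 ratio of RPKM + 0.1 for each resolved replication member (green, n = 12) and mitosis member (purple, n = 12) in the 4 pairs of a positive with a negative library, with black lines at the medians. The medians are below 0 in 3 pairs and at 0.71 and 0.23 in the pair of the deeper positive library with the shallower negative library.

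Wider lists held 110 other cell cycle genes, of which 108 had enough reads and none passed an FDR of 0.05. Of these, 85 lay below the ratio of a gene at equal RPKM. Of 41 other replication genes, 26 lay below the ratio of a gene at equal RPKM and 15 above, with a median log2 ratio of -0.56. Of 42 other mitosis genes, 40 lay below and 2 above, with a median of -1.13. Espl1, the separase that cuts cohesin at anaphase, had the lowest log2 ratio, -2.76, with 0.0424 and 0.102 RPKM in positive and 0.592 and 1.56 RPKM in negative cells. Nek2, a centrosome kinase, was the only one of these 110 genes with an unadjusted p below 0.05 in the authors' deposited table (p = 0.0408, FDR 1.00). No read of Nek2 came from the shallower positive library, and it stood at 0.717 RPKM in the other positive library, and 0.990 and 3.93 RPKM in negative cells. Kif18b, a kinesin of the mitotic spindle, had a log2 ratio of -2.06. Among the replication genes Orc1, an origin recognition subunit, Gins3 and Dtl, an adaptor of the ligase that destroys Cdt1, had the largest differences, with log2 ratios of -2.18, -2.16 and -1.90. The summed RPKM of other mitosis over other replication genes was 0.752 and 1.40 in positive and 1.68 and 2.09 in negative libraries, again without overlap. Their medians of log2(RPKM + 0.1), mitosis minus replication, differed by -0.51 and -0.42 in positive and by 0.07 and 0.57 in negative libraries.

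Regulators of the G1 phase and the CDK inhibitors were more mixed, and again none passed the test. Of 20 G1 regulators, 16 lay below the ratio of a gene at equal RPKM and 4 above, with a median log2 ratio of -0.85. E2f2, an activating E2F factor, stood at 0.476 and 1.33 RPKM in positive cells and at 1.82 RPKM or more in negative cells, with a log2 ratio of -2.26. E2f8, a repressing E2F factor that acts late in S phase, had a log2 ratio of -1.71, and Cdk2, the kinase that E-type cyclins activate, one of -1.47. Ccnd2, a D-type cyclin named after its values were seen, went the other way, at 10.3 and 1.48 RPKM in positive and 2.82 and 2.38 RPKM in negative cells. It was high in the positive library in which all resolved members were lowest, and its log2 ratio was 0.83 (p = 0.698 in the authors' deposited table). Of 7 CDK inhibitor genes, 5 had enough reads, of which 3 lay below and 2 above. Cdkn1c, the inhibitor p57, had 19.7 to 106 RPKM in positive cells and 1.39 to 26.1 RPKM in negative cells, with a log2 ratio of 1.02 (p = 0.0563 in the authors' deposited table). Cdkn2c and Cdkn2d, inhibitors of the D-type cyclin kinases, had log2 ratios of -1.61 and -0.75.

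Summed levels of several lists of blood cell markers moved across the libraries together with those of the members. Over the whole lists, 8 of 8 pan-leukocyte and 8 of 9 late neutrophil markers lay below the ratio of a gene at equal RPKM. So did 10 of 11 pro- and pre-B cell and 10 of 12 erythroid markers. None of these 4 lists had a gene past the FDR. At an unadjusted p below 0.05 in the authors' deposited table, 3 late neutrophil markers were lower, against 0.300% of all genes. These were Mmp8, Cxcr2 and Mmp9, with log2 ratios of -3.62, -3.53 and -3.51. Of the other 3 lists, only Rag1, a pro- and pre-B cell marker, was lower at that p, with a log2 ratio of -2.74. The resolved erythroid markers (7 of 12) summed to 3.67 and 22.5 RPKM in positive and 11.9 and 46.1 RPKM in negative libraries. The highest single gene of this sum reached 14.9 RPKM. Unresolved markers are outside it, among them Alas2 (5.87 to 94.0 RPKM in negative cells) and Car2 (13.1 to 72.7 RPKM). The resolved replication members summed to 10.6 and 67.2 RPKM against 39.3 and 131 RPKM, and the resolved mitosis members to 3.92 and 24.2 RPKM against 16.5 and 58.4 RPKM. The order of the libraries was the same in all of these sums. Gene by gene the erythroid markers followed it less: the deeper negative library was highest in 5 of 7, against 24 of 24 members, and their median was 4.15 RPKM in the deeper positive and 3.46 RPKM in the deeper negative library. Between the libraries the replication sum differed by up to 12.3-fold, while its ratio to the erythroid sum was 2.90, 2.99, 3.31 and 2.84, a difference of 1.17-fold. For the mitosis members, with a range of 14.9-fold, the ratio to the erythroid sum differed by 1.31-fold. Their part in the result was not tested.

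For other blood cell lists the ratio of sums was less even, while some followed the members' order gene by gene. The deeper negative library was highest in 4 of 4 resolved pan-leukocyte, 9 of 9 pro- and pre-B cell, 2 of 3 late neutrophil and 1 of 5 promyelocyte markers. The resolved pan-leukocyte markers (4 of 8) summed to 11.4 and 55.2 RPKM in positive and 49.3 and 113 RPKM in negative libraries, and the ratio of replication members to them differed by up to 1.53-fold. The resolved late neutrophil markers (3 of 9) summed to 345 and 2200 RPKM against 1390 and 2800 RPKM, and that ratio differed by up to 1.65-fold. For the resolved pro- and pre-B cell markers (9 of 11), at 11.0 and 46.0 RPKM against 17.4 and 178 RPKM, it differed by up to 3.07-fold. For the resolved promyelocyte markers (5 of 7), at 61.1 and 894 RPKM against 189 and 393 RPKM, it differed by up to 4.43-fold, and 2 of the 7 lay below the ratio of a gene at equal RPKM. Of 5 endothelial markers 3 lay below it, with a median log2 ratio of -0.43, but 0.73 as the authors' difference of mean logs. By library they did not follow the members: the deeper negative library was highest in 0 of 5. Their median was 0.180 and 0.337 RPKM in positive and 0.282 and 0.00918 RPKM in negative libraries. The skeletal and periosteal markers ran against the members. All 12 lay above the ratio of a gene at equal RPKM, 2 of them, Col2a1 and Bglap, passed an FDR of 0.05, and the 4 resolved ones summed to 49.4 and 15.7 RPKM in positive and 9.85 and 0.198 RPKM in negative libraries. Among these 12 markers Acan, a cartilage proteoglycan, had 0 RPKM in the deeper negative library, the one with the highest level of every resolved member. Each of these lists and the members share the same 4 libraries, and the part of the cell make-up in the members' levels was not tested.

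**Figure D5:**
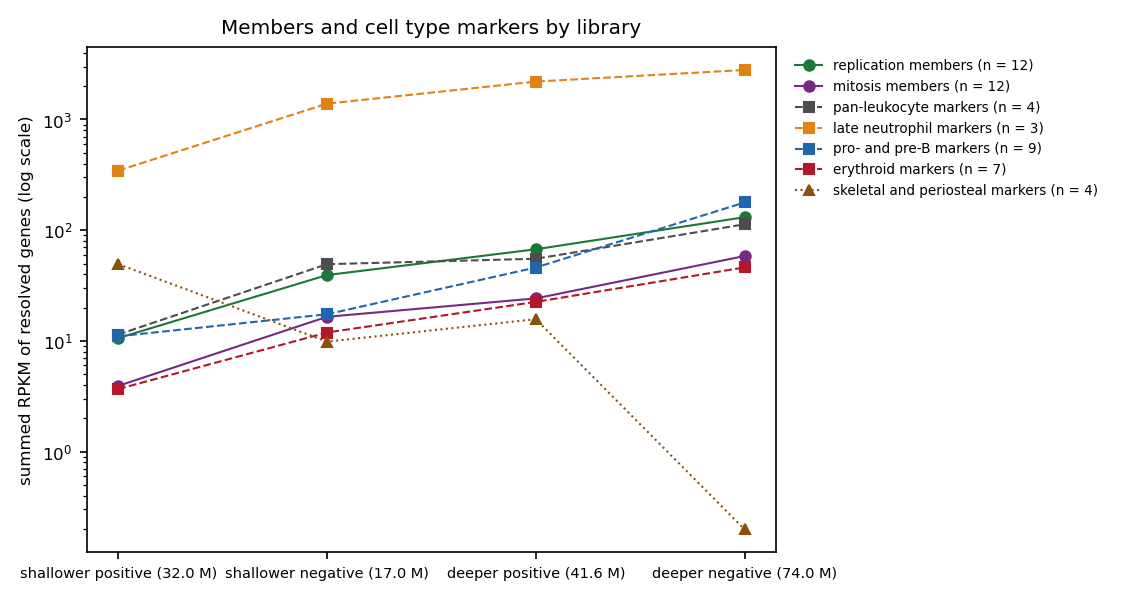
Summed RPKM of resolved genes on a log axis in the 4 libraries, ordered by the members' sums, for replication members (green circles), mitosis members (purple circles) and lists of cell type markers (squares and triangles), with lines only to guide the eye. The members rise from 10.6 to 131 RPKM and from 3.92 to 58.4 RPKM, the erythroid markers from 3.67 to 46.1 RPKM, and the skeletal markers are highest, at 49.4 RPKM, where the members are lowest.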

How the data were processed

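RNA of TdTomato-positive and TdTomato-negative periosteal cells, 2 libraries each, was sequenced as 75-nucleotide paired reads from SMARTer low-input libraries after a 2 h liberase digestion (100 µg/mL) and flow sorting, per the labels' protocols. Reads were aligned and quantified with STAR and Partek on mm10, per the submitters' processing notes (versions not given in the sources used). Per the file headers, the deposited table gives group means of a normalized signal, the highest value and the sum as a score, the difference on the natural log scale, a ratio of means, a signed fold as a score, and a p-value with a step-up FDR from the authors' lognormal model with shrinkage. It has 47643 genes and no column per library.

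Both group means, together with the highest value and the natural log difference deposited by the authors, gave exactly 1 set of 4 library values for each of 47643 genes. These equalled RPKM plus 0.1, times a constant, divided once more by depth and span. This scale, the depths (32.0, 41.6, 17.0 and 74.0 M reads) and the offset were inferred from the values. The assignment giving whole reads was taken (tolerance 0.01 reads, at most 0.05; 0.002 where 1 value decided), which resolved 11690 (68.1%) of 17176 genes with at least 10 reads in 2 libraries. On simulated data for 47643 genes, all genes with whole reads were assigned correctly, and 17.0% of those with fractional reads were resolved, 98.8% of them correctly. As a check, the deposited Akaike criterion ran from -88.7 to 73.3 over genes and from 24.5 to 25.8 after 2 times the summed natural logs of the solved values was subtracted. Depth set the precision: 1 read in 17.0 M is worth more RPKM than 1 in 74.0 M. Reads are counted without molecular identifiers.

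The main test was the authors' deposited p and FDR (0.05, two-sided). limma 3.58.1 (R 4.3.3) on log2(RPKM + 1), genes with RPKM of at least 1 in 2 libraries and Benjamini-Hochberg adjustment, was an alternative, as were other offsets, size factors, a block for each of the 2 possible pairings by collection, and leaving out each library. In limma, unresolved genes took the assignment whose libraries differ less. Levels of members are deposited means times span, and table ends were moved back by 1 base, which matches the GENCODE M21 annotation of 32 of 38 members. Promoter windows came from RefSeq on GRCm38.p6. The members and lists were chosen with earlier results of these data known. All members are accounted for. Those given in full were, per list, up to 8 with the largest log2 ratio in either direction. The 3 with the highest level and the 1 nearest 0 were added. Other cell cycle lists give up to 3 genes with the largest log2 ratio. Marker lists name only some of these, and any past the FDR.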

Additional observations from a re-analysis of the deposited data

How the results depend on the processing

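By the authors' FDR 0 of 38 members passed, and each limma fit called 0 members: with an added 1 or 0.1 RPKM, with or without the filter on low values, on resolved genes only, with the wider assignment, with a replicate block and without each library in turn. All of these limma fits called 0 of the genes tested, so they do not bear on how stable the members' count is. The lowest adjusted p of a member in the limma fits without a block lay between 0.401 and 1. Without the deeper positive library, 7 of 16 members were lower at an unadjusted p below 0.05 in limma, against 5.53% of 3325 genes; the lone positive library is there assumed to vary like the negative ones. Leaving out each library in turn, on resolved members, gave median log2 ratios of -2.37 to -0.35 for replication and -2.33 to -1.02 for mitosis members, and a difference between them (mitosis minus replication) of -0.70 to 0.04. On that scale the log2 ratio of a gene at equal RPKM also shifts with the library left out. With the further division by depth undone as well, both medians and their difference ran from -2.72 to 0.03, from -2.73 to -0.50 and from -0.71 to 0.00. The replication median turned to 0.03 without the deeper negative library and was -2.72 without the deeper positive library. Without that positive library the difference between the lists was 0.04, or 0.00 with the further division undone. In the remaining positive library the resolved mitosis members had a median of 0.151 RPKM, near the added 0.1. With 1 RPKM added in place of 0.1 the difference was -0.17, and with 0.01 RPKM it was -0.64, against -0.54. Of 413 values of single members under alternatives, 405 kept their direction. Many of them could not turn, since filtering genes or adding a balanced block leaves a gene's log2 fold unchanged. Without each library in turn, 7 of 64 values reversed. The sign of Pcna turned to -0.03 as the authors' difference of mean logs, where a gene with equal RPKM has -0.04. The other reversals were limma log2 folds without the shallower positive or without the deeper negative library. Over the libraries left out, these folds ran from -1.18 to 0.55 for Cdt1, from -0.63 to 0.40 for Ccne1, from -1.41 to 0.59 for Ccnb2 and from -1.50 to 0.16 for Cdk1. The cause was not tested. Size factors in place of total depth moved the median log2 ratio of all genes with enough reads by -0.12, from -0.26 to -0.38, and that of a gene at equal level to -0.47, below which 32 members lay. The collection of each library is not known, so the replicate block was fitted in limma on resolved genes under both possible pairings, with 0 members called in each and a lowest adjusted p of 0.0655 (shallower with shallower, deeper with deeper) and 0.954. Settings that undo the further division, use the authors' estimate, the wider assignment, the pairings or limma on resolved genes only were chosen after seeing the data. Every member had at least 40 reads in each library under the assignment used.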
